A study of Rattus norvegicus with 18 samples.

Results

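The cultures described here are primary neuron cultures depleted of the chromatin remodeler CHD5. They were followed from day 9 to day 12 of culture, on 6 first-run arrays out of 18, with replicates a, b and c on each day. They were chosen by label alone, without regard to any measured value. Over these 3 days they gained RNA of astrocytes and of some genes of the oligodendrocyte lineage. They lost RNA of several neuropeptides, of some activity-dependent genes and of several enzymes of cholesterol synthesis. Synaptic genes moved in both directions. All samples were cultures of primary cortical neurons of embryonic rats, grown in Neural Basal Medium. They received pLKO.1 lentivirus with shRNA inserts for CHD5, packaged in HEK-293T cells, for 6 hours on day 1 and were then kept until RNA was harvested on day 9 or day 12. The control cultures of the same days received lentivirus with control shRNA for the same 6 hours, and enter below only where the late change of the depleted cultures is set beside theirs. The study's account names 1 CHD5 lentivirus for its arrays. On these arrays a response to its shRNA sequence other than CHD5 loss cannot be told apart from depletion. For selected genes the study also ran PCR on independent samples, including with a different shRNA. Targets that did not repeat with that shRNA were treated as possibly off-target. Chd5 itself was not measured here, since no probe is annotated to it.

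CHD5 is a chromatin remodeling ATPase of the Mi2 group, found mainly in brain and in neurons, where it occurs in a complex like NuRD, which joins nucleosome remodeling to histone deacetylation. Dissociated embryonic cortex yields mostly postmitotic neurons with a minority of progenitors. In the second week of culture the neurons form synapses and shift the isoforms of their channels, receptors and tubulins, while progenitors give rise to astrocytes and oligodendrocyte precursors. A change of RNA level in such a culture can come from fewer cells of a type or from less RNA per cell, and the arrays cannot tell these apart.

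Each value is a brightness averaged over the beads that carry 1 probe of an Illumina rat array, and a detection p-value sets it against the negative control beads. A probe was kept when it had a p-value of 0.02 or less on 1 or more of the 6 arrays, which left 9289 of 22523 probes. The 6 arrays detected 8360 to 8723 probes and had mean signals of 400.2 to 530.8. After the log2 signals of each array were brought to a common mean and spread (the normalized log2 signal used below), arrays of the same day correlated by 0.9951 to 0.9973 and arrays of different days by 0.9901 to 0.993. Among the 12 arrays of days 9 and 12, the control array of day 9 replicate b stood apart, with a mean signal of 134.8 and 7047 probes detected, and the comparisons with control cultures below are given with and without it. Nothing in the labels says whether replicates a, b and c were separate cultures, so the p-values measure only the spread between these samples. The slide of each array is not given in the sources used here, so a slide effect cannot be told apart from the day.

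Over the 3 days, 1508 probes differed between the days at an adjusted p under 0.05 (limma, Benjamini-Hochberg over all 9289 probes), which is 16.2% of those kept. Of these, 786 probes were higher at day 12 (8.46% of those kept) and 722 were lower (7.77%), a split that became 626 and 970 under median centring of the arrays. The median change over all kept probes was -0.01 on the log2 scale. The changes were mostly small, and 129 of the 1508 probes changed by at least 1.5-fold, of which 93 were higher and 36 lower. The number of calls rested on single arrays in part. It was 1005 without day 9 replicate a, 823 without day 12 replicate c and 877 without day 12 replicate b. When the other groups of the series shared the estimate of the spread, it was 169 with all 18 arrays and 550 with 17, control day 9 replicate b left out. An exact permutation test of any 1 probe, 3 arrays against 3, cannot give a two-sided p below 0.1. For 3191 of the 9289 kept probes (34.4%) the day 9 and day 12 arrays did not overlap. A lack of overlap in a single gene is thus common. It was also required of the largest rises and falls named below, and is no added evidence for them.

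The largest rise was that of Igfbp7, a secreted protein that binds insulin-like growth factors. Its normalized log2 signals were 8.14, 7.83 and 7.74 on the day 9 arrays and 9.53, 9.32 and 9.40 on the day 12 arrays. The days did not overlap, which was required of the genes chosen here. The difference was 1.51 ± 0.0957 (SE, n = 3 per day), with an adjusted p of 1.25e-06. Entpd2, an enzyme at the cell surface that removes phosphates from extracellular ATP, rose by 1.5 ± 0.166 (adjusted p = 6.27e-05). Its day 9 arrays were spread from 7.07 to 8.06 and its day 12 arrays lay between 9.03 and 9.15. Among the other large rises were Plaat3, a phospholipase (1.25), Prkcq, a protein kinase C isoform (1.13), Ccn3, a matricellular protein (1.09), and Fbxo2, which marks glycoproteins for ubiquitination (0.98). S100a3, a calcium-binding protein, was not detected on any day 9 array and was at least 1.56-fold higher at day 12 (adjusted p = 2.66e-06).

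The largest fall was that of Cort, the precursor of the neuropeptide cortistatin, described with the other peptides below. Metrn, a secreted protein of glial progenitors, read 10.16, 10.30 and 10.15 at day 9 and 9.36, 9.60 and 9.45 at day 12. Its days did not overlap, by the same choice. The difference was -0.74 ± 0.0772 (adjusted p = 3.83e-05). Other large falls were those of Slc22a3, a transporter of organic cations (-0.76), Nppc, the precursor of C-type natriuretic peptide (-0.76), and Sema7a, a membrane-anchored semaphorin (-0.70). Rnf125, a ubiquitin ligase, was not detected on any day 12 array and was at least 1.57-fold lower there. Of 28 genes with the largest rises and falls, 27 passed the limit under every alternative run on single genes, and the exception was Tuba1a.

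**Figure D1:**
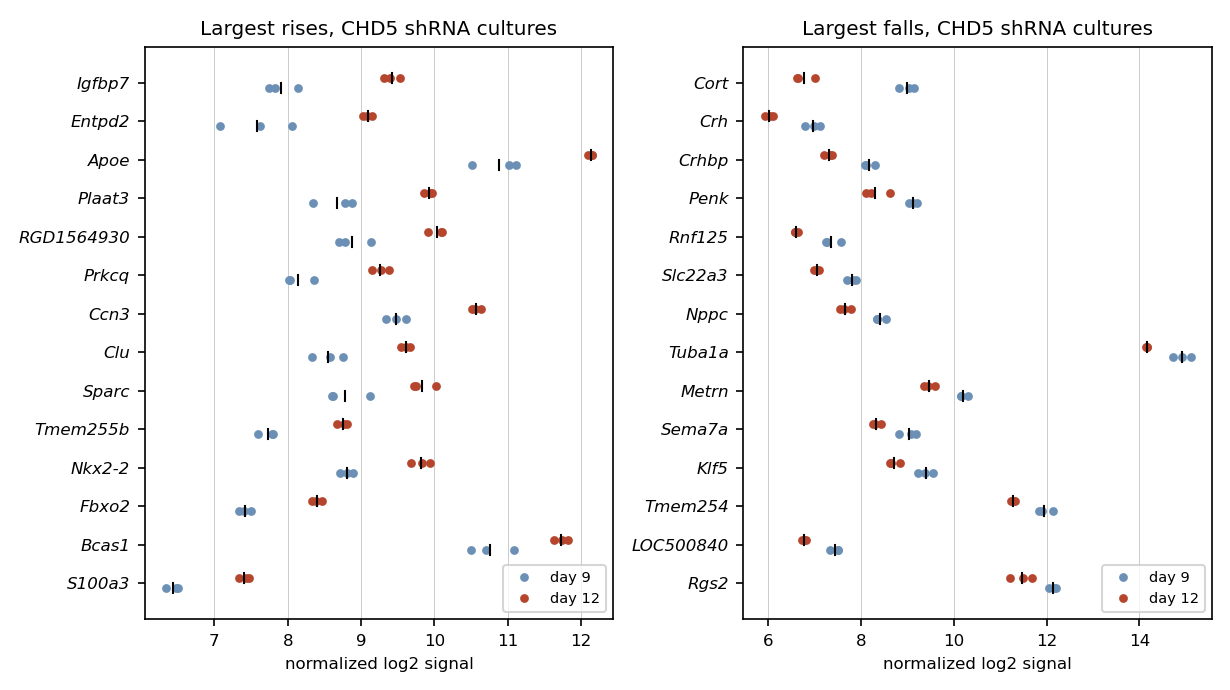
Normalized log2 signal (horizontal axis) of 14 genes with the largest rises and 14 with the largest falls in CHD5 shRNA cultures, chosen as called, detected on all 3 arrays of the higher day and without overlap. Blue points are the 3 day 9 arrays, red points the 3 day 12 arrays and black ticks the means; the days are separate for every gene by this choice, and Cort shows the widest gap, -2.24.

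Astrocyte genes made up the clearest group. Of 27 kept marker genes of astrocytes, 19 were called higher at day 12, none was called lower, and 26 had a change above 0. Among all kept probes 8.46% were called higher and 7.77% lower. The median change of the list was 0.55, beside -0.01 for all probes. Its summed normalized signal went from between 77390 and 91610 on the day 9 arrays to between 95040 and 101700 on the day 12 arrays. With all 18 arrays in the fit 10 of the members were called higher, and with 17 arrays 16.

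Apoe, the main lipid carrier that astrocytes secrete, read 11.11, 11.01 and 10.52 at day 9 and 12.10, 12.15 and 12.15 at day 12. All day 12 arrays lay within a narrow band above the day 9 arrays, with a difference of 1.25 ± 0.117 (adjusted p = 1.20e-05), or 2.38-fold. Its probe on the array, shown because this gene carries the largest rise among the markers, had the following bases:
Apoe: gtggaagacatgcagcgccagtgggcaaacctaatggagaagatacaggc
Clu, the secreted chaperone clusterin, rose by 1.05 (adjusted p = 7.90e-06) and Sparc, a matrix protein, by 1.05 (adjusted p = 9.30e-05). Aqp4, the water channel of astrocyte endfeet, read 7.70, 7.51 and 7.13 at day 9 and 8.26, 8.52 and 8.45 at day 12, a difference of 0.96 ± 0.118. Gja1, the gap junction protein connexin 43, rose by 0.77 and Aldoc, the glycolytic aldolase of astrocytes, by 0.68.

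The list did not move as 1 block. Gfap, the intermediate filament protein that most often defines astrocytes, read 9.61, 8.71 and 8.29 at day 9 and 9.47, 9.05 and 9.12 at day 12. These days overlapped, with replicate a of day 9 the highest of the 6 arrays, and the difference of 0.34 ± 0.229 did not pass (adjusted p = 0.336). The glutamate transporters of astrocytes, Slc1a2 and Slc1a3, had changes of 0.11 and 0.10 and did not pass either. In Aldoc and Ndrg2, as in Apoe, day 9 replicate c had the lowest signal of the 6 arrays. The rise of the summed astrocyte signal fell in the same days as the declines of neuronal genes given below, and its part in them was not tested.

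The oligodendrocyte lineage moved unevenly. Of 13 kept markers 6 were called higher and 1 lower, beside 8.46% and 7.77% of all kept probes. The median change was 0.19, and the summed signal of the list went from between 15230 and 16180 to between 17700 and 18670. Nkx2-2, a transcription factor of the lineage, read 8.81, 8.89 and 8.71 at day 9 and 9.94, 9.83 and 9.68 at day 12, a difference of 1.01 ± 0.079 (adjusted p = 4.18e-06). Every day 12 array was above every day 9 array. Pdgfra, the growth factor receptor of oligodendrocyte precursors, read 8.92, 8.89 and 8.93 at day 9 and 9.80, 9.94 and 9.84 at day 12, a difference of 0.95 ± 0.0665 (adjusted p = 2.59e-06). Its 3 arrays of each day lay close together, and the days were far apart beside them. Bcas1, a protein of newly formed oligodendrocytes, rose by 0.97 and Cnp, a myelin-associated enzyme, by 0.78.

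Other members did not follow. Olig1 and Olig2, the transcription factors that specify the lineage, had changes of -0.12 and 0.13 that did not pass. Sox10, which glial cells of this lineage need, read 7.90, 7.91 and 7.75 at day 9 and 7.60, 7.63 and 7.57 at day 12, a difference of -0.25 (adjusted p = 0.0248) whose call was lost without any of 5 of the 6 arrays, the exception being day 9 replicate c. Mbp, the basic protein of compact myelin, was not detected on the day 9 arrays and was detected on all 3 day 12 arrays, but its change of 0.19 did not pass (adjusted p = 0.119). Of the 20 markers on the array 7 were not detected on any of the 6 arrays, among them Mag, Mog, Mal, Opalin and Cldn11, which are proteins of mature myelin.

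Markers of other cell types were few. None of the 13 microglial markers on the array was detected on any of the 6 arrays. Of 12 endothelial and pericyte markers 3 were kept and none was called, where 16.2% of all kept probes were. Of 18 fibroblast markers 8 were kept, and their summed signal went from between 4956 and 5820 to between 3866 and 4115. Their median change was -0.18, with 1 call, that of Igfbp2, a growth factor binding protein that is also made by glia (-0.47, adjusted p = 0.00295). Tubb3, the neuron-specific tubulin, was detected on all 6 arrays at 11.18 to 11.71, and Map2, a protein of dendritic microtubules, at 8.50 to 8.78. Neither passed the limit for a change.

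Some genes of proliferation fell. Of 34 kept genes, 10 were called lower and 1 higher, beside 7.77% and 8.46% of all kept probes, and the median change was -0.17. Cdk1, the kinase that starts mitosis, read 10.23, 10.30 and 10.11 at day 9 and 9.78, 9.78 and 9.77 at day 12, a difference of -0.44 ± 0.0689 (adjusted p = 0.000879). Ccnb2, its cyclin partner, fell by 0.46 and Pbk, a mitotic kinase, by 0.41. Mki67 had a change of 0.02, and Ccnd1, the cyclin of early G1, was the member called higher (0.32, adjusted p = 0.0122). The count of 10 was sensitive, at 5 without day 12 replicate c or with the second runs, 6 without day 9 replicate a or day 12 replicate a, 16 under median centring, and 1 with all 18 arrays in the fit or 7 with 17.

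Several neuropeptides fell. Of 23 kept genes of peptides and granins, 6 were called lower (Cort, Crh, Penk, Adcyap1, Npy and Sst) and 0 higher. The shares of all kept probes were 7.77% and 8.46%, and the median change of the list was -0.08. Without day 12 replicate a, 2 members were called higher. The count of 6 was 4 with all 18 arrays in the fit and 6 with 17. Cort read 8.82, 9.04 and 9.15 at day 9 and 7.02, 6.65 and 6.64 at day 12. Every day 12 array was far below every day 9 array, and the difference was -2.24 ± 0.106 (adjusted p = 5.40e-08). The probe was detected on 1 of the 3 day 12 arrays, so its level there lay at the edge of detection. The probe with the largest change of all had the following bases:
Cort: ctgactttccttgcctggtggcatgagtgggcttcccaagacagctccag

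Crh, the corticotropin-releasing hormone, read 6.79, 7.11 and 6.99 at day 9 and was not detected at day 12. It was at least 1.19-fold lower there (adjusted p = 1.02e-05). Crhbp, the protein that binds this hormone, read 8.10, 8.30 and 8.10 at day 9 and 7.37, 7.20 and 7.34 at day 12, a difference of -0.86 ± 0.077. The peptide and its binding protein thus fell over the same days. Penk, the enkephalin precursor, fell by 0.81 (adjusted p = 0.000274), Adcyap1, the precursor of the peptide PACAP, by 0.48 (adjusted p = 0.00229) and Npy, neuropeptide Y, by 0.42 (adjusted p = 0.00103). Cck, cholecystokinin, had a change of 0.21 that did not pass (adjusted p = 0.121).

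Several of these peptides belong to GABAergic interneurons, and that list was mixed. Of 17 kept members 6 were called lower and 2 higher, beside 7.77% and 8.46% of all kept probes, with a median change of -0.01. Gad1, the GABA-synthesizing enzyme, read 12.35, 12.42 and 12.25 at day 9 and 12.05, 12.03 and 12.00 at day 12, a difference of -0.31 ± 0.0685 (adjusted p = 0.00735). Dlx5 and Dlx2, homeobox factors of interneuron precursors, fell by 0.40 and 0.36. Sox6, which acts in interneurons and in oligodendrocyte precursors, read 7.68, 7.79 and 7.81 at day 9 and 8.28, 8.45 and 8.45 at day 12, a rise of 0.63 (adjusted p = 7.83e-05). Calb2, the calcium-binding protein calretinin, rose by 0.27. With all 18 arrays in the fit no member was called lower, and with 17 arrays 6 were.

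Among 17 kept genes of excitatory cortical neurons, 3 were called higher and 4 lower, beside 8.46% and 7.77% of all kept probes. The median change was -0.09. Fezf2, a factor of deep-layer projection neurons, read 9.62, 9.40 and 9.80 at day 9 and 9.15, 8.98 and 9.14 at day 12, a difference of -0.52 (adjusted p = 0.00235). Slc17a6, a vesicular glutamate transporter that is strongest in early development, fell by 0.30. Nrgn, neurogranin, a calmodulin-binding protein of mature dendrites, read 10.85, 10.61 and 10.63 at day 9 and 11.33, 11.12 and 11.28 at day 12, a rise of 0.55 (adjusted p = 0.000644). Tle4, a corepressor of deep-layer neurons, rose by 0.43 (adjusted p = 0.00511). None of the 7 calls held with all 18 arrays in the fit, and with 17 arrays 2 members were called higher and 2 lower.

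Several activity-dependent genes fell as well. Of 21 kept members 8 were called lower and 1 higher, beside 7.77% and 8.46% of all kept probes. The median change was -0.25, and 16 of the 21 had a change below 0. Rgs2, which limits signaling by G proteins, read 12.04, 12.20 and 12.17 at day 9 and 11.48, 11.22 and 11.69 at day 12, a difference of -0.67 ± 0.0996 (adjusted p = 0.000578). Bdnf, the brain-derived neurotrophic factor, read 8.42, 8.42 and 8.74 at day 9 and 7.90, 7.64 and 8.12 at day 12, a difference of -0.64 ± 0.112 (adjusted p = 0.00214). In both genes the 2 days were separate and replicate c was the highest of day 12. Nr4a3, a nuclear receptor of early responses, fell by 0.58, but its call was lost without day 12 replicate a or without day 12 replicate b. Another probe of this gene fell by 0.23.

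The fastest genes of this list set day 12 replicate c apart. Fos, an immediate early transcription factor, read 7.22 and 6.86 on arrays a and b of day 12 and 8.92 on array c, against 7.78 to 7.95 at day 9. Egr1 read 8.21 and 8.26 on arrays a and b and 9.45 on array c, against 8.14 to 8.28 at day 9. Neither change passed, at -0.22 (adjusted p = 0.706) and 0.41 (adjusted p = 0.247), and without array c that of Fos was -0.85. Without day 12 replicate b, 5 members of the list were called lower. The count of 8 was 3 with all 18 arrays in the fit and 5 with 17.

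Many activity-dependent promoters hold the cAMP response element, the palindrome TGACGTCA that CREB binds. Promoters of 300 bases, from 250 before to 50 after the annotated start (RefSeq, build GRCr8), were found for 18 of the 21 members, and the element stood in those of 6 (33.3%): Btg2, Crem, Dusp1, Ier2, Scg2 and Vgf. It stood in 3.68% of the 6737 genes with both a kept probe and a promoter, and in 1.83% of all 33469 promoters. Of the members that were called lower, 2 of 7 with a promoter held it (28.6%, Btg2 and Crem). This share was not above that of the whole list, to which these genes also belong. With only 7 genes, whether the element goes with the fall was not tested. Among the peptides called lower, 1 of 4 held the element (Sst). Sst, somatostatin, read 11.45, 11.30 and 11.52 at day 9 and 11.12, 11.06 and 11.19 at day 12. It fell by 0.30 (adjusted p = 0.0142) and Btg2, an antiproliferative early response gene, by 0.37 (adjusted p = 0.0112). Their promoters are shown because both genes fell and both windows hold the element, which stands in capitals, at chr11:90461296-90461595 (plus strand) and chr13:48087641-48087940 (minus strand):
Sst: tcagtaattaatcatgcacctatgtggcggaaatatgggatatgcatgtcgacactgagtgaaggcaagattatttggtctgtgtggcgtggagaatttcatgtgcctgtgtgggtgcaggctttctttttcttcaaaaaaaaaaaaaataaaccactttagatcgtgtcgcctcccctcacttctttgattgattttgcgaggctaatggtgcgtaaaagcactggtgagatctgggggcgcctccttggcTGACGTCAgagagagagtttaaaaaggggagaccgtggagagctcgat
Btg2: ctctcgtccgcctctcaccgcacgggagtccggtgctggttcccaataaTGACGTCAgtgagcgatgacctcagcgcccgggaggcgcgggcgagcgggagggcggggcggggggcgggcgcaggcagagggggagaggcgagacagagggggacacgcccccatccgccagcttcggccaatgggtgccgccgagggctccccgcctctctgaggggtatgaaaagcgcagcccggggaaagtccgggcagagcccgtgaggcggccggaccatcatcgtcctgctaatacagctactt

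Synaptic genes changed unevenly. Of 29 kept genes of the presynaptic vesicle and release, 5 were called higher and 2 lower, beside 8.46% and 7.77% of all kept probes. The median change was -0.0001, and 14 of the 29 had a change above 0. Snap25, a SNARE protein of the plasma membrane, read 10.93, 11.14 and 10.76 at day 9 and 11.42, 11.34 and 11.49 at day 12, a rise of 0.48 ± 0.0889 (adjusted p = 0.00314). Syp, synaptophysin of the vesicle membrane, rose by 0.46 and Dnm1, the dynamin of vesicle retrieval, by 0.41. Syt4, a synaptotagmin linked to peptide-filled vesicles, fell by 0.28 (adjusted p = 0.0288). On the other side of the synapse, 3 of 20 scaffold and CaMKII genes were called higher and 1 lower. Dlgap1, a partner of PSD-95, read 8.41, 8.36 and 8.52 at day 9 and 8.88, 8.90 and 8.87 at day 12, a rise of 0.45 (adjusted p = 0.00062). With all 18 arrays in the fit, no presynaptic gene and 1 postsynaptic gene was called higher, and with 17 arrays 2 presynaptic and 2 postsynaptic genes were.

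Receptors and channels showed small changes. The counts below stand beside 8.46% of all kept probes called higher and 7.77% called lower. Gria2, the AMPA receptor subunit that blocks calcium entry, rose by 0.34 (adjusted p = 0.00819), and with Gria3 it made 2 of 7 kept ionotropic glutamate receptor genes called higher. The call of Gria3 was lost under 11 of the alternatives, among them leaving out day 9 replicate a or c or any 1 of the day 12 arrays, and with 17 or 18 arrays in the fit neither gene was called. Of 9 kept GABA-A and glycine receptor genes 2 were called higher, Gabrg1 and Glrb, and the calls were lost under 10 and 11 of the alternatives. Scn2a, a sodium channel of the axon initial segment, read 7.81, 7.77 and 7.74 at day 9 and 8.23, 8.36 and 8.23 at day 12, a rise of 0.50 ± 0.0679 (adjusted p = 0.000291). Of 33 kept potassium channel genes 5 were called higher, led by Kcnk1 (0.52), and 5 lower, led by Kcnq5 (-0.46). Of 22 kept sodium, calcium and HCN channel genes 4 were called higher and 1 lower, and the count of 4 dropped to 1 without day 12 replicate b or c or without day 9 replicate a, and to 2 without day 9 replicate b or c. The potassium channel falls numbered 1 to 3 without any 1 of the arrays. Of 27 kept transporters of transmitters and amino acids 1 was called higher and 5 lower, led by Slc38a2, a carrier of neutral amino acids such as glutamine (-0.59). With all 18 arrays in the fit no gene of the 2 channel lists was called, and 1 transporter was called higher and 1 lower. With 17 arrays 2 potassium channel genes were called higher and 2 lower, without Kcnk1. In the same fit the sodium, calcium and HCN list had 1 call each way, and the transporters had 1 call higher and 3 lower.

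Cell adhesion genes of the immunoglobulin family leaned upward, with 6 of 17 called higher, 1 lower and a median change of 0.23. Among all kept probes 8.46% were called higher and 7.77% lower. Thy1, a surface protein of mature neurons, read 8.08, 7.97 and 8.02 at day 9 and 8.70, 8.57 and 8.67 at day 12, a rise of 0.63 (adjusted p = 5.26e-05). Cadm1, a synaptic adhesion molecule, rose by 0.60 and Nptn, neuroplastin, by 0.53. Lsamp, which guides limbic axons, fell by 0.36 (adjusted p = 0.0112), a call that was lost without day 12 replicate b or c, with the second runs of replicate a and with 17 or 18 arrays in the fit. Of 27 kept genes of the extracellular matrix and its proteases, 11 were called higher and 2 lower, with a median change of 0.22. Besides Sparc, its relative Sparcl1 (0.70) and the protease Htra1 (0.79), which are also astrocyte markers, these included Tnr, the tenascin of perineuronal nets (0.66), and Mmp14, a membrane-bound metalloprotease (0.62). With all 18 arrays in the fit, 2 of the adhesion genes and 3 of the matrix genes were called higher, and with 17 arrays 4 and 8.

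A pair of alpha-tubulins moved in opposite directions. Tuba1a, the alpha-tubulin of growing neurites, had normalized log2 signals of 14.72, 14.92 and 15.10 at day 9 and 14.17, 14.15 and 14.16 at day 12, a difference of -0.75 ± 0.0863 (adjusted p = 7.86e-05). Tuba4a, an alpha-tubulin of mature axons, read 8.55, 8.61 and 8.61 at day 9 and 9.33, 9.40 and 9.43 at day 12, a rise of 0.80 ± 0.0654 (adjusted p = 5.37e-06). Both pairs of days were separate, in opposite directions. Before normalization the Tuba1a signals were 27832, 26141 and 28743 at day 9 and 23579, 19029 and 19069 at day 12. That is a smaller fall than the normalized values give. The signal of Tuba1a ranked 3rd to 6th brightest of all probes on the day 9 arrays and 24th to 32nd on the day 12 arrays, and its call was lost with 17 or 18 arrays in the fit. The probes of the pair were compared only with each other and not with tubulin mRNAs. Whether each tells related mRNAs apart was therefore not tested. Shown because the pair moved in opposite directions, they shared at most 16 bases over an ungapped overlap of 44:
Tuba1a: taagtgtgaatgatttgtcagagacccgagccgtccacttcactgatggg
Tuba4a: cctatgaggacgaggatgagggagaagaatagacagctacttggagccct
Apart from these, 27 genes of axon growth and the cytoskeleton were kept. Crmp1 and Dpysl3, relatives in the collapsin response family, fell by 0.26 and 0.39, and no further gene was called.

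Several enzymes of cholesterol synthesis fell. Of 27 kept genes of sterol and fatty acid synthesis 11 were called lower, 1 higher and 15 neither. The shares of all kept probes were 7.77% lower and 8.46% higher. The median change of the list was -0.20, and its summed signal went from between 80590 and 90170 to between 72810 and 77110. With all 18 arrays in the fit 4 members were called lower, and with 17 arrays 7. Mvd, which makes the isoprenoid building block from mevalonate, read 11.73, 11.72 and 12.01 at day 9 and 11.28, 11.22 and 11.20 at day 12, a difference of -0.58 ± 0.0817 (adjusted p = 0.000366). Fdps, the farnesyl diphosphate synthase that acts later in the pathway, read 10.76, 10.83 and 10.60 at day 9 and 10.22, 10.15 and 10.30 at day 12, a difference of -0.51 (adjusted p = 0.000651). Ebp and Tm7sf2, enzymes of the late steps from lanosterol to cholesterol, fell by 0.64 and 0.65, and another probe of Tm7sf2 also fell by 0.65.

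The genes called lower lay at early and at late steps of the pathway. Hmgcs1, which makes HMG-CoA, fell by 0.37 (adjusted p = 0.00902). Srebf1, the transcription factor of fatty acid synthesis, was the member called higher, at 8.83, 8.78 and 8.64 on day 9 and 9.17, 9.21 and 9.20 on day 12 (0.45, adjusted p = 0.000874). Of 19 members with a promoter in RefSeq, 15 (78.9%) held the CCAAT box, CCAAT on either strand, against 39.6% of the 6737 genes with a kept probe and 37.5% of all promoters. Among the members called lower, 8 of 9 held it. The promoters of Mvd and Fdps are shown for enzymes of the same pathway that fell alike, with each CCAAT or its complement ATTGG in capitals, at chr19:67414925-67415224 and chr2:176804767-176805066 (GRCr8, both on the minus strand):
Mvd: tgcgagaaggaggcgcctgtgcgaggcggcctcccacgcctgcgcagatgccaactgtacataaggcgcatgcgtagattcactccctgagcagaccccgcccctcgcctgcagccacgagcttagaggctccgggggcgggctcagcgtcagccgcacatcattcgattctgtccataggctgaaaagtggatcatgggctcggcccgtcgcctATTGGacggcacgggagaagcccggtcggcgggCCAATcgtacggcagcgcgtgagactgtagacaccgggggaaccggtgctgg
Fdps: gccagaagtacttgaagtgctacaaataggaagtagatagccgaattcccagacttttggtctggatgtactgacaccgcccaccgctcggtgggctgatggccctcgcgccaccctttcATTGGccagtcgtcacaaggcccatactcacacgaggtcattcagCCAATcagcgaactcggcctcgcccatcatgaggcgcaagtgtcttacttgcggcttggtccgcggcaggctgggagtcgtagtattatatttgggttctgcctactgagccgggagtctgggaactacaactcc
Each window held 2 such matches. A match describes the letters of the window and does not show that a factor binds there.

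Transcription factors of the Notch, NFI and ID groups moved in both directions, with 4 of 18 called higher and 3 lower. The shares of all kept probes were 8.46% and 7.77%. Id1, an inhibitor of differentiation that answers to BMP signals, read 8.43, 8.44 and 8.40 at day 9 and 9.22, 9.27 and 9.39 at day 12, a rise of 0.87 ± 0.0687 (adjusted p = 4.18e-06). Id3, its relative, rose by 0.78 (adjusted p = 1.89e-05). Hes6, a neuronal relative of the Notch targets that opposes them, read 12.55, 12.53 and 12.60 at day 9 and 11.95, 12.00 and 12.05 at day 12, a difference of -0.56 (adjusted p = 9.39e-05). Hes5, a Notch target of radial glia and astrocytes, rose by 0.32, and Mfng, which modifies Notch, fell by 0.47. The count of 4 was 7 without day 9 replicate b and 2 without day 12 replicate a or with all 18 arrays, where none was called lower. With 17 arrays 2 were called higher and 2 lower.

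Of 15 kept genes of the NuRD complex and CHD remodelers, the relatives of CHD5, 1 was called, beside 16.2% of all kept probes. Chd3 read 7.80, 7.69 and 8.01 at day 9 and 8.19, 8.21 and 8.03 at day 12, a rise of 0.31 (adjusted p = 0.0261) that was lost under 8 of the alternatives. Chd4 had a change of 0.20 that did not pass (adjusted p = 0.074).

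The study followed up 32 genes by PCR for their response to depletion, and all 32 had a kept probe. In the late interval 4 of them were called higher (Apoe, Ndrg2, Add3 and Chd3) and 4 lower (Npy, Adora2a, Kmt5c and Satb1). These counts stand beside 8.46% and 7.77% of all kept probes. The call of Add3 was lost under 5 of the alternatives and that of Chd3 under 8. The other calls, apart from that of Apoe, were lost only with all 18 arrays in the fit. The list was chosen on these samples for another comparison, so its counts are a description. Satb1, a chromatin organizer of cortical interneurons, read 10.26, 10.22 and 10.29 at day 9 and 10.06, 9.85 and 9.83 at day 12, a difference of -0.34 (adjusted p = 0.00702). Kmt5c, the histone methyltransferase also named Suv420h2, fell by 0.40 (adjusted p = 0.0034). The other 24 genes did not pass, with changes of up to 0.345 in size. Of these, 23 were Actl6b, Ampd3, App, Chd4, Ddit4, Dicer1, Dlx1, Dpf1 (listed by the study as Neud4), Fgfr3, Fmr1, Fos, Gabrd, Gfap, Grin1, Id2, L1cam, Maoa, Nefl, Nefm, Nfia, Smarcd1, Suv39h1 and Vip.

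Lists of general cellular functions are set beside all kept probes, of which 16.2% were called, 8.46% higher and 7.77% lower. Counting both directions together, the ribosomal, respiratory, proteasome, glycolysis and p53 lists had a smaller share of calls. The stress, heat shock and interferon lists had a larger one. By direction, the ribosomal and glycolysis lists had a larger share called higher than all kept probes, and the proteasome list a larger share called lower. Of 92 kept genes or gene copies of cytosolic ribosomal proteins 9 were called higher and 3 lower, and the median change was -0.0039. Near-identical copies of these genes can share signal, so single members are uncertain, and the count of 9 was 16 without day 9 replicate b and 5 without day 9 replicate a or day 12 replicate c. The count of 3 was 6 without day 9 replicate a and 0 or 1 without any other array. Of 69 genes of the respiratory chain 3 were called higher and 4 lower. The count of 3 was 1 without day 9 replicate a or any 1 of the day 12 arrays, and the count of 4 was 2 without day 9 replicate a and 1 without day 9 replicate c or any 1 of the day 12 arrays. Of 35 proteasome subunits 0 were called higher and 4 lower. Without day 9 replicate b 2 were called higher, and without day 9 replicate c or day 12 replicate a or c 2 were called lower. Glycolysis and the citrate cycle had 5 of 34 called higher and 0 lower, led by the astrocytic Aldoc, and the count of 5 was 2 without day 12 replicate a or b and 3 without day 12 replicate c. Heat shock genes were divided, with 4 of 11 called higher, among them the small heat shock protein Hspb8 (0.75, adjusted p = 0.000242) and its partner Bag3 (0.54), and 3 lower, or 1 without day 12 replicate b. The stress response list had 3 of 30 called higher and 4 lower, led by Manf (-0.41), and without day 12 replicate b these counts were 1 and 2. Of 19 genes of p53 and cell death 1 was called, Hrk, and its call was lost under 11 of the alternatives. Of 8 interferon response genes 3 were called higher, with B2m, the light chain of class I molecules, at 0.59 (adjusted p = 0.00202). With all 18 arrays in the fit, 1 heat shock gene was called higher, and no member of the other lists of this paragraph was. With 17 arrays the calls higher were 4 ribosomal, 1 glycolytic, 2 heat shock and 3 interferon genes. The calls lower were 1 respiratory and 1 stress response gene with 18 arrays. With 17 arrays they were 1 respiratory, 2 stress response and 1 heat shock gene.

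**Figure D2:**
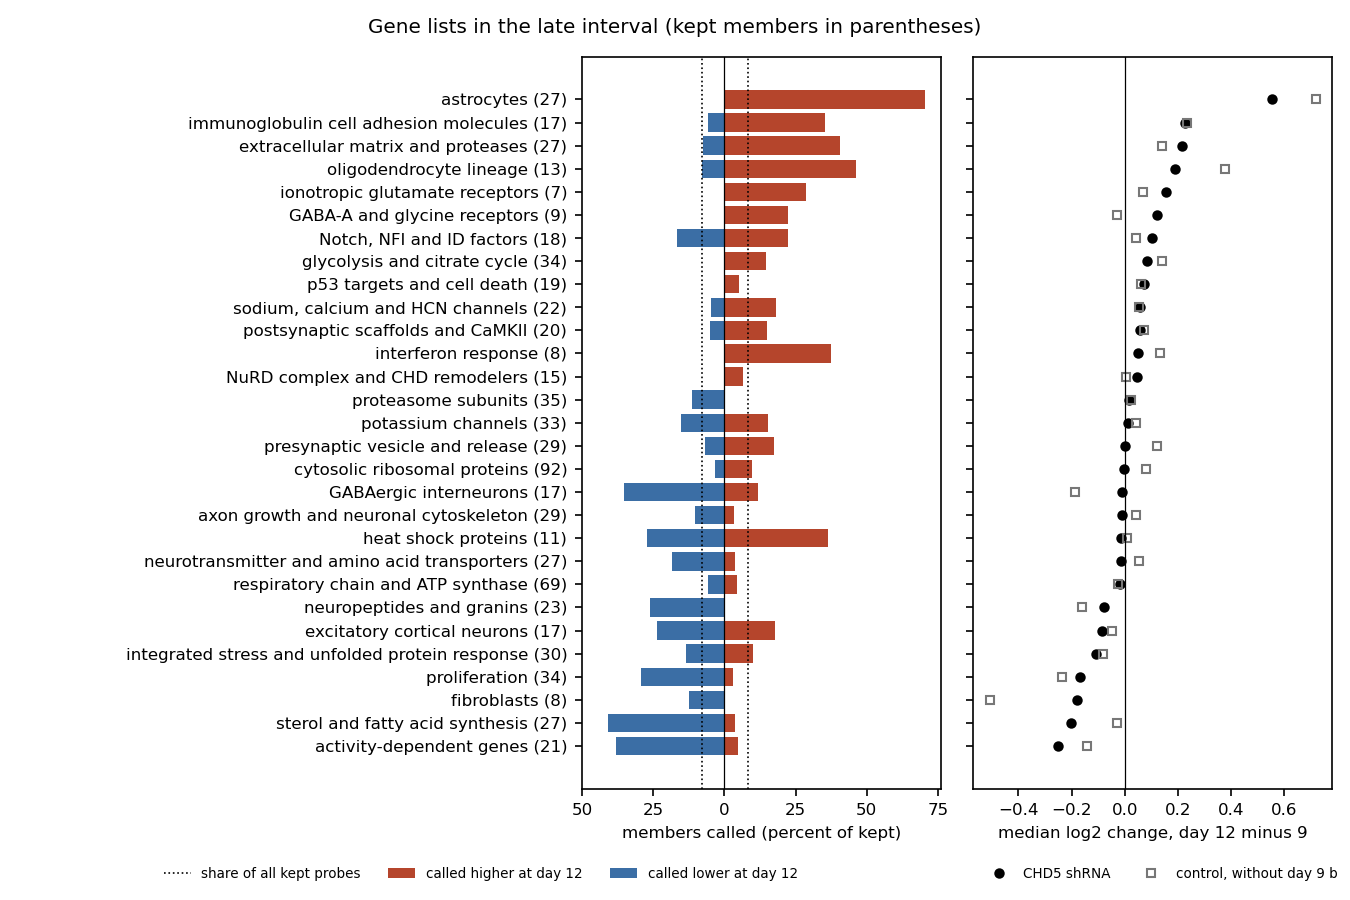
Left, percent of the kept members of each gene list called higher (red, to the right) or lower (blue, to the left) at day 12 in CHD5 shRNA cultures, with the shares of all kept probes, 8.46% and 7.77%, as dotted lines. Right, median log2 change of each list in CHD5 shRNA cultures (filled circles) and in control cultures without day 9 replicate b (open squares); astrocyte genes lie at 0.55 and 0.72 and activity-dependent genes at -0.25 and -0.14.

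Most probes called in depleted cultures had a change of the same sign in control cultures over the same days. Of the 786 probes called higher in depleted cultures 745 (94.8%) had a change above 0 in the control cultures, where 47.1% of all kept probes did. Of the 722 called lower, 656 (90.9%) had a change below 0 in control cultures, against 52.9% of all kept probes. Without control day 9 replicate b the shares were 88.8% and 91.1%, beside 51.0% and 49.0% of all kept probes. Spearman's rho between the changes was 0.60 across the 9289 probes, and 0.53 without that array. The 2 changes share no array, but they share the probes and their base composition, and genes are not independent replicates, so the value is a description.

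Several leading genes changed in depleted cultures beside a control change of the same sign. Igfbp7 had changes of 1.51 in depleted and 1.61 in control cultures, Ccn3 of 1.09 and 1.08, Pdgfra of 0.95 and 0.99, and Cort of -2.24 and -2.78. For Cort the changes differed by 0.58, with an unadjusted p of 0.00851 and an adjusted p of 0.996 (limma). Without control day 9 replicate b the control changes of these genes were 1.38, 0.98, 0.90 and -2.80. The median of the astrocyte list was 0.55 in depleted and 0.48 in control cultures, or 0.72 in control cultures without day 9 replicate b. For the sterol list the medians were -0.20 and -0.16, and -0.03 without that array. Tuba1a depended on that array, with a control change of -1.61 with it and -0.06 without it, and Apoe had control changes of 0.48 and 1.00.

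**Figure D3:**
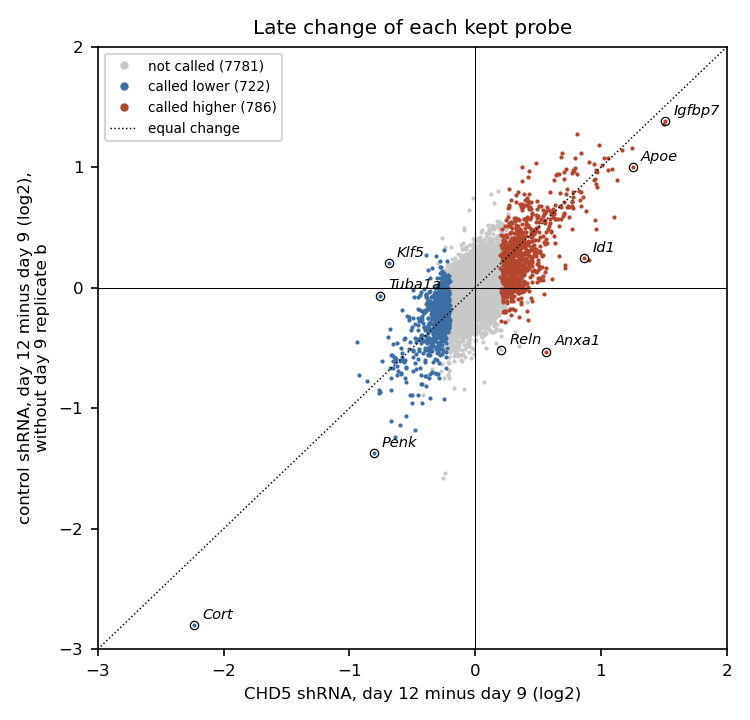
Log2 change from day 9 to day 12 of each of 9289 kept probes in CHD5 shRNA cultures (horizontal axis) and in control cultures without day 9 replicate b (vertical axis), with the dotted line at equal change. Red and blue points are the 786 and 722 probes called higher and lower in depleted cultures; most lie in the quadrants of equal sign, and Klf5 and Anxa1 lie in those of opposite sign.

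Whether the late change differed between depleted and control cultures was tested in 1 model over the 12 arrays. No probe passed the adjusted limit (0%, smallest adjusted p = 0.339, limma), and 280 probes had an unadjusted p under 0.05. Without control day 9 replicate b, 10 probes passed and 1018 had an unadjusted p under 0.05. With all groups of the series in the fit and the same array left out, 1 probe passed. The lack of calls over the 12 arrays does not show that the late changes were the same.

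The 5 genes with the smallest unadjusted p in that test were Klf5, Reln, Anxa1, Ifi27l2b and Qprt. Klf5, a zinc finger transcription factor of growing cells, read 9.24, 9.39 and 9.56 at day 9 and 8.64, 8.64 and 8.85 at day 12 in depleted cultures. It fell there by 0.69 (adjusted p = 0.0002), while its control change was 0.23. Reln, the secreted protein of Cajal-Retzius cells and interneurons, had a change of 0.20 that did not pass in depleted cultures (adjusted p = 0.0567) and a control change of -0.49. Anxa1, a phospholipid-binding protein, rose by 0.57 in depleted cultures (adjusted p = 0.00382) beside a control change of -0.42. Qprt, an enzyme that degrades quinolinate, had changes of -0.24 and 0.41, and Ifi27l2b, a relative of interferon-induced genes, of -0.25 and -0.92. In Klf5, Anxa1, Reln and Qprt the changes had opposite signs in the 2 kinds of culture. Without control day 9 replicate b, the control changes were 0.21 for Klf5, -0.52 for Reln, -0.53 for Anxa1, -0.92 for Ifi27l2b and 0.34 for Qprt, and the first 4 of these genes passed.

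Beside those 4 genes, Id1, Adcyap1, Cspg4, Lox, Sstr1 and Zfp575 passed when control day 9 replicate b was left out, and are named because of that result. Id1 rose by 0.87 in depleted cultures, against 0.25 in control cultures without that array. The difference on the scale of that fit was 0.64 (limma, adjusted p = 0.0227). Adcyap1 had changes of -0.48 and -1.18 on the same arrays. Lox, a collagen crosslinking enzyme, had changes of -0.24 and -1.54, and Cspg4, the proteoglycan NG2 of oligodendrocyte precursors, of -0.05 and 0.65. Col1a2, a fibroblast collagen, had a change of -0.26 in depleted cultures and of -1.43 in control cultures (-1.58 without that array). The list of fibroblast markers had a median of -0.62 in control cultures, -0.51 without that array, beside -0.18 in depleted cultures. The part of these markers in the differences was not tested.

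The levels by day show where the late change began, on a scale common to all 18 arrays. Apoe in depleted cultures went from 7.72 ± 0.0657 (SD, n = 3) at day 5 to 10.98 ± 0.322 at day 9 and 12.25 ± 0.0272 at day 12, so that most of its rise came before day 9. Nkx2-2 stood at 7.01 ± 0.0879, 8.87 ± 0.0925 and 9.90 ± 0.129 on the same days. In control cultures Nkx2-2 was at 7.01 ± 0.167, 8.58 ± 0.465 and 9.85 ± 0.0391. Tuba4a went from 7.34 to 8.65 and 9.46 in depleted cultures and from 7.56 to 8.53 and 9.57 in control cultures, with a higher mean at each later day in both kinds of culture.

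Among the falling genes, Cort went from 9.78 at day 5 to 9.07 at day 9 and 6.80 at day 12 in depleted cultures, so that its loss was late. Bdnf stood lower at each later day, from 9.79 to 8.59 and 7.94, and was below these levels in control cultures at day 9 (7.85) and day 12 (7.31). Klf5 went from 9.99 at day 5 to 9.48 at day 9 and 8.78 at day 12 in depleted cultures. In control cultures it had already come to 8.56 at day 9 and stood at 8.80 at day 12. The depleted and control means of Klf5 were thus nearly equal at day 12 and further apart at day 9. Without control day 9 replicate b, the control means of day 9 were 8.83 ± 0.255 (SD, n = 2) for Nkx2-2, 8.57 for Tuba4a, 7.92 for Bdnf and 8.59 for Klf5. Since the day 9 arrays enter both intervals, the steps before and after day 9 are not independent.

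**Figure D4:**
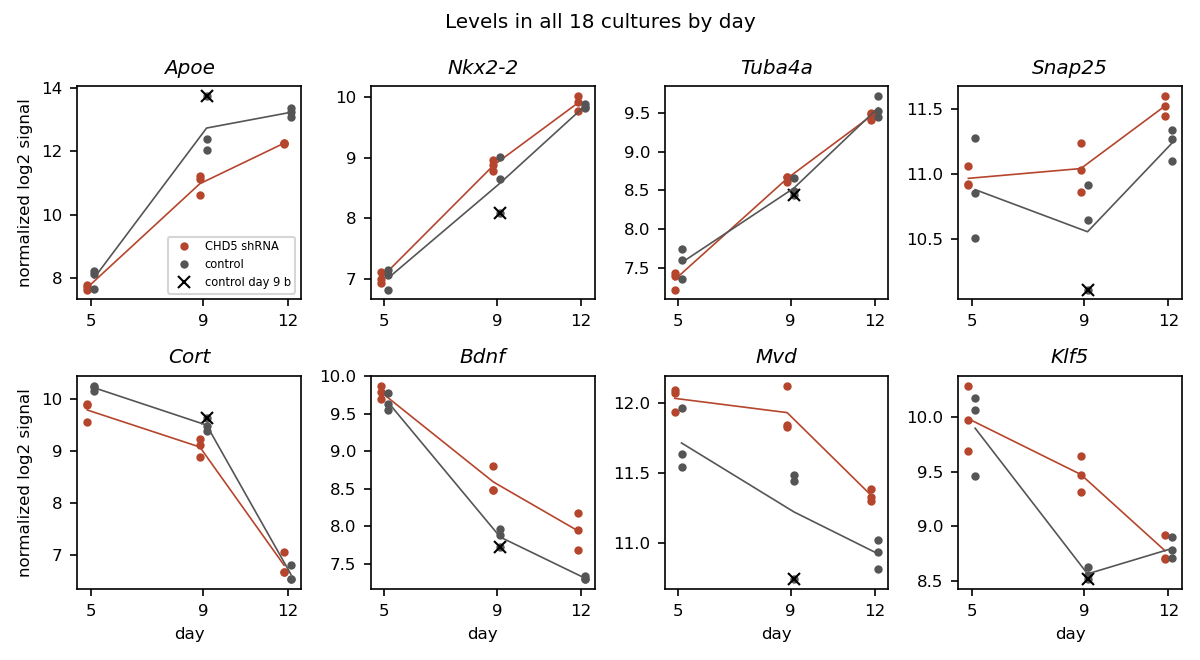
Normalized log2 signal (vertical axis, a scale of its own for each gene, all 18 arrays normalized together) of 8 genes by day of culture. Red points are the 3 CHD5 shRNA arrays and grey points the 3 control arrays of each day, lines join the means, and a cross marks control day 9 replicate b; Cort in depleted cultures moves mainly after day 9, whereas Klf5 in control cultures is low from day 9 on.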

How the data were processed

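RNA of cultures of primary cortical neurons of rats was measured on Illumina RatRef-12 arrays, with 3 arrays for each lentivirus and day. The deposited intensity of a probe is averaged over its beads. The submitters' processing notes name GenomeStudio 1.1.1, and the authors deposited the values without normalization or background subtraction, so that differences of dim probes are understated. The authors' detection p-value compares each probe with negative control beads and is unadjusted. Replicate a of each group was measured again, and the 6 second runs were used only in an alternative. The number of beads and arrays limits the precision.

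Kept were probes that 1 or more of the 6 CHD5 shRNA arrays of days 9 and 12 detected (p-value of 0.02 or less). Their log2 signals were Z-transformed per array, as in the study, and multiplied by the mean SD. limma 3.58.1 (R 4.3.3, lmFit and eBayes) was fitted to the 6 arrays, and for the difference from control cultures to the 12 arrays of days 9 and 12. Adjustment was by the Benjamini-Hochberg method with a limit of 0.05. The procedure was tested on simulated data. The letters a, b and c were checked for pairing by the correlation of deviations from the group means.

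Named are the 15 largest rises and 15 largest falls among called probes that were detected on all 3 arrays of the higher day and did not overlap, up to 3 called members with the largest change in each of 31 gene lists, the 5 probes with the smallest p for the difference from control cultures, the genes of the study's PCR, and further members of lists with their values. Some genes that the rule names are not reported here, but enter all counts over probes and lists. For a gene with several probes the brightest was taken. A probe not detected on a day has only a bound there, the higher of its own signal and the lowest detected signal of each array. The members, lists and tests were chosen with earlier results of these data known. Of the kept probes 8417 were matched to a current RefSeq symbol.

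The alternatives were quantile normalization, median centring, neqc with an offset of 16, other detection filters, 1 probe per symbol, a 1.5-fold limit, fits of 9 or 18 arrays, a replicate block, array weights, the second runs, the criteria of the study (Z-ratio beyond 1.5 and a false detection rate under 0.3), and leaving out each array. A fit of 17 arrays was added after seeing the data. Genome coordinates of the probes were not used, since their build is not given in the sources used here.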

Additional observations from a re-analysis of the deposited data

How the results depend on the processing

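The count of 1508 called probes stayed within 1.5 times under quantile normalization, median centring, neqc, the other detection filters, 1 probe per symbol and array weights, between 1108 and 1864. Median centring turned the split of 786 higher and 722 lower into 626 and 970. The count was 129 with a limit of 1.5-fold, 862 with the 9 CHD5 shRNA arrays, 169 with all 18 arrays, 550 with 17 arrays (control day 9 replicate b left out), 836 with the second runs of replicate a and 816 by the criteria of the study. Leaving out each array in turn gave 823 to 1591. Same-letter deviations correlated by 0.11, -0.15 and -0.064, so the letters were not taken to pair the arrays. With a replicate block by letter 1259 probes were called, and 0 for the difference from control cultures. That difference had 0 calls under every other setting except without control day 9 replicate b (leave-one-out range 0 to 10) and with 17 arrays (1). The causes were not tested.

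Of 100 named genes that were called, 44 stayed past the limit under all settings run on single genes and 69 under all but the fit of 18 arrays, and none changed sign. Signs changed only among genes that did not pass. Dlx1 (0.01) became -0.0133 under quantile normalization, -0.00975 under median centring, -0.013 under neqc, -0.044 with array weights and -0.0151 with the second runs, and ranged from -0.143 to 0.119 without 1 array. Nefm (0.01) became -0.0188, -0.0333 and -0.0245 under the same normalizations, -0.000216 with detection required on 3 arrays of either day and -0.00136 with the second runs, and ranged from -0.0261 to 0.0511 without 1 array. Without 1 array, Fmr1 ranged from -0.0163 to 0.103, Fos from -0.85 to 0.18, Smarcd1 from -0.00353 to 0.18, Suv39h1 from -0.000876 to 0.0755 and Vip from -0.16 to 0.212. The slide as a block was not run, since no slide is given.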
